A study of Rattus norvegicus with 12 samples.

Results

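The genes described here are the G1 cyclins and the inhibitors of the kinases they drive, namely Ccnd1, Ccnd2, Ccnd3, Ccne1, Ccne2, Cdkn1a, Cdkn1b, Cdkn1c and Cdkn2c. They were chosen by name and role, with earlier results of these data known. Of the 9 genes, 8 had a transcript cluster (the set of probes summarised to 1 value) with 1 gene symbol, out of 14300 such genes and 27342 clusters in all, and Ccnd3 is named only. Affymetrix Rat Gene 1.0 ST arrays measured their RNA in 3 zones of cartilage of the proximal tibia of 10-day-old Sprague-Dawley rats. From articular cartilage, which covers the bone end at the joint, came the superficial zone (SZ) and the intermediate/deep zone (IDZ), and from the growth plate, which lengthens the bone, came its reserve layer, the resting zone (RZ). The study asked in which genes the young articular zones and growth plate cartilage are alike and in which they differ.

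Each zone had 4 arrays, numbered here as replicates 1 to 4. No animal carried an altered gene or received a treatment, and the zones were cut by hand under the microscope from eosin-stained sections, with a layer of tissue between zones discarded. Each SZ sample came from both tibias of 1 animal, whereas each IDZ and each RZ sample pooled 2 animals, and an IDZ sample and an RZ sample with the same replicate number shared their animals. The SZ animals were among them, since SZ replicates 1 and 2 came from the 2 animals of IDZ and RZ replicate 3, and SZ replicates 3 and 4 from those of replicate 4, so the zones are not independent samples of animals. Values are the deposited log2 signals, so a difference of 1 on the log2 scale is 2-fold, and a level can be compared between zones for 1 gene but not between genes, whose probes differ. In whole tissue, fewer cells of a type and less RNA per cell cannot be told apart. The chondrocyte list, cartilage matrix genes such as Col2a1 and Acan, averaged 11.74 to 12.08 in the SZ arrays, 12.83 to 12.90 in the IDZ arrays and 12.77 to 12.93 in the RZ arrays, so that the labelled tissue was well marked in every array, and 7 of its 8 measured genes were lower in SZ than in each other zone.

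SZ replicate 4 stood apart from the other arrays. The interquartile range of its log2 values was 2.24, against 2.50 to 2.91 in the other 11 arrays. It gave the lowest SZ value for 8 of the 8 measured members, as it did for 66.8% of all clusters at or above the median level. Where leaving it out changed the call of a member, the value without it is given.

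Progress from G1 into S phase, when DNA is copied, is driven by cyclin-dependent kinases. D-type cyclins bind Cdk4 and Cdk6 in response to growth signals, E-type cyclins bind Cdk2 at the entry into S phase, and both kinases phosphorylate the retinoblastoma protein and so release E2F transcription factors. Inhibitors of the CIP/KIP family (p21, p27 and p57, encoded by Cdkn1a, Cdkn1b and Cdkn1c) bind cyclin and kinase together, and those of the INK4 family (p18, encoded by Cdkn2c) bind Cdk4 and Cdk6. In growth cartilage the resting zone divides slowly and supplies the columns of proliferating chondrocytes below it, and cyclin D1 and p57 are known regulators of chondrocyte division.

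The D-type cyclins Ccnd1 and Ccnd2 differed between the zones in unlike ways. Ccnd1, the cyclin D1 gene, gave log2 signals of 9.74, 9.68, 9.45 and 9.31 in SZ replicates 1 to 4, 7.80, 7.84, 8.03 and 8.04 in the IDZ replicates and 9.46, 9.56, 9.11 and 9.33 in the RZ replicates. Every IDZ array lay below every SZ and every RZ array, while the SZ and RZ arrays overlapped. Ccnd1 was 3.07-fold higher in SZ than in IDZ (1.62 ± 0.12 on the log2 scale, difference ± SE, adjusted p = 1.8e-07 in limma). It was 2.71-fold higher in RZ than in IDZ (1.44 ± 0.12, adjusted p = 2.6e-06). SZ and RZ differed by 0.18 on the log2 scale, with a 95% confidence interval of -0.08 to 0.44 (adjusted p = 0.39).

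Ccnd2, the cyclin D2 gene, stepped down from the joint surface to the growth plate. Its log2 signals were 11.16, 11.49, 11.43 and 11.09 in SZ, 10.50, 10.55, 10.35 and 10.59 in IDZ and 10.03, 10.20, 9.96 and 9.85 in RZ. No 2 zones overlapped, with SZ highest and RZ lowest. The SZ mean lay 0.80 ± 0.11 above that of IDZ (adjusted p = 7.8e-05) and 1.28 ± 0.11 above that of RZ (2.44-fold, adjusted p = 4.6e-07). The smaller step, 0.49 ± 0.11 from IDZ to RZ, passed at an adjusted p of 0.015. It missed the threshold without IDZ replicate 2 (adjusted p = 0.054), without RZ replicate 4 (0.059) and when arrays were centred on their medians (0.051).

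The log2 signal of Ccnd1 minus that of Ccnd2 within an array follows from these values. It was -1.98 to -1.42 in the SZ arrays, -2.71 to -2.32 in the IDZ arrays and -0.85 to -0.52 in the RZ arrays. Its size depends on the probes of both genes, but its order between zones does not, and no 2 zones overlapped. Relative to Ccnd2, Ccnd1 was thus highest in RZ, intermediate in SZ and lowest in IDZ, given as a description with no test.

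**Figure D1:**
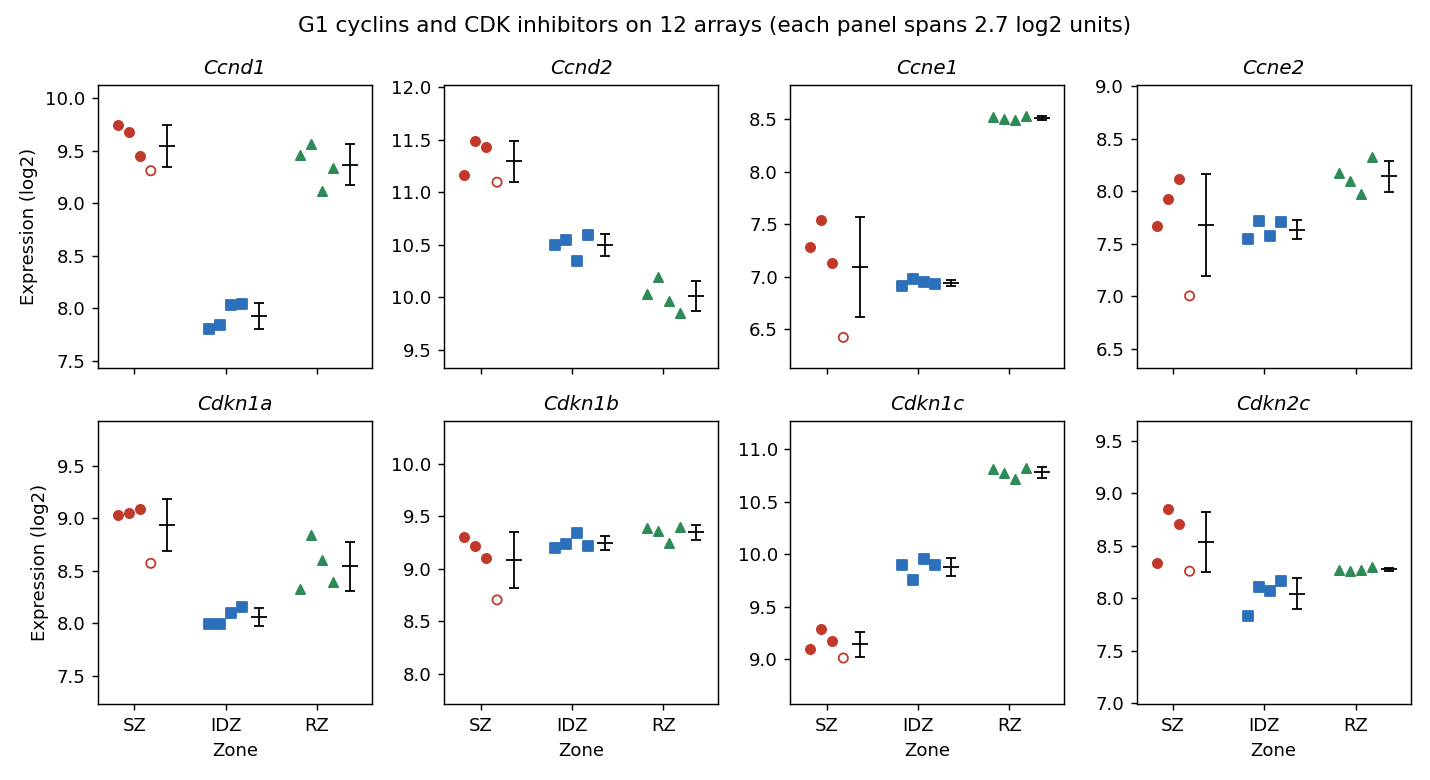
Log2 signal (vertical axis, each panel spanning 2.7 log2 units) of the 8 measured members in the SZ, IDZ and RZ arrays, 1 point per array, with the mean and SD of the 4 arrays of a zone as black marks and SZ replicate 4 as an open circle. Ccnd1 is low in IDZ alone (7.80 to 8.04), Ccne1 high in RZ alone (8.50 to 8.53), and Cdkn1c climbs from SZ (9.01 to 9.29) to RZ (10.71 to 10.82).

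Of the E-type cyclins, Ccne1 was high in RZ alone. The cyclin E1 gene gave log2 signals of 7.28, 7.54, 7.13 and 6.42 in SZ, 6.91, 6.98, 6.95 and 6.93 in IDZ and 8.52, 8.50, 8.50 and 8.53 in RZ. The RZ arrays were close together and lay above all 8 articular arrays, and the SZ arrays lay on both sides of the IDZ arrays. Ccne1 was 2.97-fold higher in RZ than in IDZ (1.57 ± 0.17, adjusted p = 3.1e-05) and 2.68-fold higher in RZ than in SZ (1.42 ± 0.17, adjusted p = 1.4e-05). SZ and IDZ differed by 0.15, with a 95% confidence interval of -0.21 to 0.51 (adjusted p = 0.58). That last comparison turned on SZ replicate 4: without it Ccne1 was 0.37 higher in SZ than in IDZ (adjusted p = 0.0047), and the SZ mean minus the RZ mean was -1.20.

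Ccne2, the cyclin E2 gene, showed smaller differences. Its log2 signals were 7.67, 7.93, 8.11 and 7.00 in SZ, 7.54, 7.72, 7.57 and 7.70 in IDZ and 8.18, 8.10, 7.97 and 8.32 in RZ. The RZ arrays lay above the IDZ arrays without overlap, while the SZ arrays overlapped both. The mean in RZ was 0.51 ± 0.18 above that in IDZ and 0.46 ± 0.18 above that in SZ, and neither difference passed (adjusted p = 0.12 and 0.088). SZ and IDZ differed by 0.04, with an interval of -0.34 to 0.43. The step from IDZ to RZ passed without SZ replicate 4 (adjusted p = 0.0039) and with the shared animals as a block in IDZ and RZ alone (0.0039). It also passed in a fit of IDZ and RZ alone with no block (0.0021). SZ minus RZ was -0.24 without SZ replicate 4 but -0.61 without SZ replicate 3 (adjusted p = 0.021).

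The log2 signal of Ccne1 minus that of Ccne2 within an array was -0.99 to -0.38 in SZ, -0.77 to -0.63 in IDZ and 0.21 to 0.53 in RZ, so that the RZ arrays again stood clear of the articular arrays.

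The E-type cyclin genes and Cdkn2c are known targets of E2F, so the start regions of Ccne1 and Cdkn2c are shown for the GGCGGGA motif, a short form of the site these factors bind. RefSeq (build GRCr8) gave a window from 250 bases before to 50 bases after the start for 5 of the 9 members, of which 4 had a cluster. That of Ccne1, at chr1:99927860-99928159 on the minus strand, is printed 5′ to 3′ with GGCGGGA or its reverse complement in capitals.
Ccne1: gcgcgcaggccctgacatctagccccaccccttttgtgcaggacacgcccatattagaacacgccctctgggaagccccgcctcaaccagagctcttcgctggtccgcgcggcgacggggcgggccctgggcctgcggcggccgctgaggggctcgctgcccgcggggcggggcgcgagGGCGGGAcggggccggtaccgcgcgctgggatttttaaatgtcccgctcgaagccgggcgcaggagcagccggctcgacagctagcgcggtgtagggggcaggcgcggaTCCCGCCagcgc
The match on the gene's own strand begins at base -71 from the start and that on the opposite strand at base 39. The GC box GGGCGG matched 3 times, at -133, -85 and -72, and the last of these overlaps the GGCGGGA at -71. GGCGGGA on either strand was found in 10.5% of 33469 rat windows of this length and GGGCGG in 33.1%. Neither match says that a factor binds there.

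Of the CIP/KIP inhibitors, Cdkn1c, which encodes p57, differed between all 3 zones, in the order opposite to Ccnd2. Its log2 signals were 9.09, 9.29, 9.18 and 9.01 in SZ, 9.89, 9.75, 9.95 and 9.89 in IDZ and 10.81, 10.77, 10.71 and 10.82 in RZ. No 2 zones overlapped, with RZ highest and SZ lowest. Cdkn1c was 3.11-fold higher in RZ than in SZ (1.64 ± 0.09, adjusted p = 2.8e-09). The step from SZ to IDZ was 0.73 ± 0.09 (adjusted p = 1.8e-05) and that from IDZ to RZ 0.91 ± 0.09 (adjusted p = 9.7e-06). Each of the 3 differences kept its call under every alternative tried except the 2-fold minimum, which only the difference between SZ and RZ met.

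Cdkn1a, which encodes p21 and is known to be raised by p53 and by growth signals, was lowest in IDZ, as Ccnd1 was. Its log2 signals were 9.03, 9.05, 9.09 and 8.57 in SZ, 7.99, 7.99, 8.10 and 8.15 in IDZ and 8.33, 8.84, 8.60 and 8.39 in RZ. The IDZ arrays lay below all others, and SZ replicate 4 fell within the RZ range while the other SZ arrays lay above it. Cdkn1a was 1.84-fold higher in SZ than in IDZ (0.88 ± 0.13, adjusted p = 0.00016). It was 0.48 ± 0.13 higher in RZ than in IDZ (adjusted p = 0.041) and 0.40 ± 0.13 higher in SZ than in RZ (adjusted p = 0.045). Both smaller differences were close to the threshold. That between IDZ and RZ missed it without SZ replicate 1, any IDZ replicate or RZ replicate 2, 3 or 4 (adjusted p of 0.0053 to 0.14 over the 12 arrays left out in turn) and with the shared animals as a random block (0.068). That between SZ and RZ missed it without SZ replicate 1, 2 or 3, any IDZ replicate or RZ replicate 1, 3 or 4 (0.0022 to 0.15) and with the random block (0.051). Of all settings with no array left out, 3 of 11 lost the call between IDZ and RZ (adjusted p of 0.01 to 0.097). Between SZ and RZ, 5 of 10 lost it (0.012 to 0.11). The 2-fold minimum is counted in both.

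Cdkn1b, which encodes p27, had no difference that passed. Its log2 signals were 9.31, 9.22, 9.10 and 8.71 in SZ, 9.20, 9.23, 9.34 and 9.21 in IDZ and 9.39, 9.36, 9.25 and 9.40 in RZ, and every pair of zones overlapped. The IDZ mean lay 0.16 above that of SZ (95% confidence interval -0.08 to 0.41, adjusted p = 0.36), and the RZ mean 0.10 above that of IDZ (-0.15 to 0.35, 0.71). The RZ mean lay 0.26 above that of SZ (0.02 to 0.51, adjusted p = 0.14), and SZ replicate 4 was the lowest array of the 12. The window of Cdkn1a held none of the 5 motifs searched and that of Cdkn1b held GGGCGG at 1 place and CCAAT at 2.

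Cdkn2c, the INK4 inhibitor p18, was higher in SZ than in IDZ. Its log2 signals were 8.34, 8.85, 8.71 and 8.26 in SZ, 7.83, 8.10, 8.07 and 8.17 in IDZ and 8.27, 8.26, 8.27 and 8.30 in RZ. The IDZ arrays lay below those of both other zones, and the RZ arrays, within 0.04 of each other, fell inside the SZ range. The difference between SZ and IDZ was 0.50 ± 0.13 (1.41-fold, adjusted p = 0.0091). RZ was 0.23 above IDZ (95% confidence interval -0.04 to 0.50, adjusted p = 0.34) and SZ 0.27 above RZ (-0.0036 to 0.53, 0.17), the latter passing without SZ replicate 4 (0.36, adjusted p = 0.028). The start region of Cdkn2c, at chr5:129644842-129645141 on the minus strand of GRCr8, is printed in the same way as that of Ccne1.
Cdkn2c: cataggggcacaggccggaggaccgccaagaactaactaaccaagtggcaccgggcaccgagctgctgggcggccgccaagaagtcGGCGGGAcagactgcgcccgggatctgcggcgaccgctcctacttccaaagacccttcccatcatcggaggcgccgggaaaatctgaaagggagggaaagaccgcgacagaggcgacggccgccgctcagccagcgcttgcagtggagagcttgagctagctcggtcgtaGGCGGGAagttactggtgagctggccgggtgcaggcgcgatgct
Its matches to GGCGGGA begin at -164 and 7. The other motifs searched on both strands were the E2F octamers TTTCCCGC, TTTCGCGC, TTTGGCGC and TTTGCCGC (2.14% of all windows), CCAAT (37.5%) and the E-box CACGTG (6.42%). Neither the Ccne1 nor the Cdkn2c window held any of them. GGCGGGA was not particular to these 2 windows. That of Ccnd3, which had no cluster, held it at -72 on the opposite strand, with GGGCGG at 3 places and CCAAT at 1.

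Set out by comparison, 5 of the 8 members differed between SZ and IDZ at an adjusted p under 0.05, against 23.0% of all clusters, or 34.8% of those at or above the median level, where all 8 members lie. Ccnd1, Ccnd2, Cdkn1a and Cdkn2c were higher in SZ (11.8% of all clusters were) and Cdkn1c was higher in IDZ (11.2%). The arrays of these 5 genes did not overlap between the zones (22.3% of all clusters), and Ccnd1 alone also reached 2-fold (3.94%). Without SZ replicate 4, Ccne1 joined them, at 6 of 8 against 41.6%. Cdkn1b also passed when the arrays were quantile normalized again, which made the split 4 higher and 2 lower in SZ.

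Between IDZ and RZ, where fewer clusters differed, again 5 of the 8 members passed, against 6.73% of all clusters and 11.2% of those at or above the median level. Ccnd1, Ccne1, Cdkn1a and Cdkn1c were higher in RZ (3.95% of all clusters were) and Ccnd2 was higher in IDZ (2.78%). Ccnd1 and Ccne1 reached 2-fold, against 0.918%, and 7 of the 8 genes, Cdkn1b being the exception, had arrays that did not overlap, against 20.2%. Of these 7, only Ccnd2 had the IDZ arrays above (9.08% of all clusters). The count was 3 without IDZ replicate 2 or RZ replicate 4 and 6 without SZ replicate 4 (14.4% of all clusters). With the shared animals as a block in IDZ and RZ alone it was 6 (14.6%), in a fit of these zones alone also 6 (15.2%), and median centring left 0 higher in IDZ and 4 higher in RZ.

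Between SZ and RZ, 4 of the 8 members passed, against 21.1% of all clusters and 32.6% of those at or above the median level. Ccnd2 and Cdkn1a were higher in SZ (10.0% of all clusters) and Ccne1 and Cdkn1c were higher in RZ (11.1%). Ccnd2, Ccne1 and Cdkn1c reached 2-fold (4.54%) and were the 3 genes without overlap (22.0%), Ccnd2 with the SZ arrays above (9.61%). Without SZ replicate 4 the count was 5 (28.8%), with Cdkn2c added, and centring on the 75th percentile or a further quantile normalization made it 2 higher in SZ and 4 higher in RZ, with Ccne2 and Cdkn1b added. The 3 comparisons share arrays, so they are not independent of each other.

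**Figure D2:**
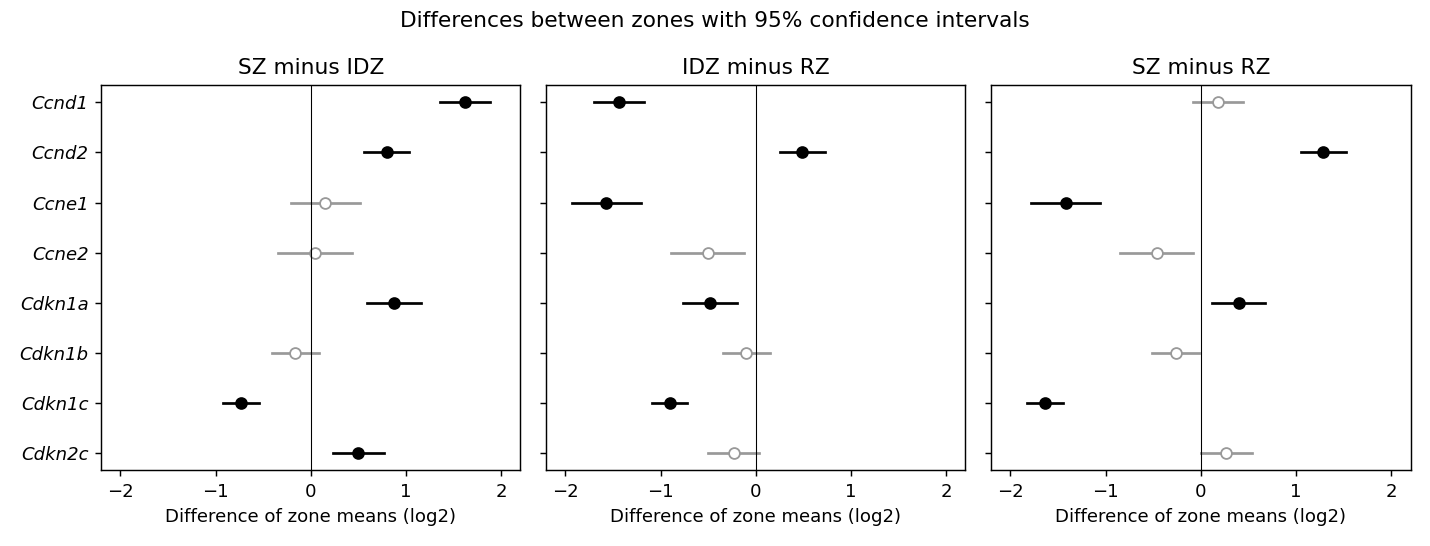
Difference in log2 signal (horizontal axis, first zone minus second) of the 8 measured members in the 3 comparisons, with 95% confidence intervals from limma over 12 arrays, where filled points passed an adjusted p of 0.05 and open points did not. Ccnd1 lies at 1.62 between SZ and IDZ and at -1.44 between IDZ and RZ, and Cdkn1c at -0.73, -0.91 and -1.64.

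Genes that act with the members were described by lists, whose counts stand against these shares of all clusters. Higher and lower in the first zone were 11.8% and 11.2% for SZ against IDZ and 2.78% and 3.95% for IDZ against RZ. For SZ against RZ they were 10.0% and 11.1%. Of clusters at or above the median level, 34.8%, 11.2% and 32.6% passed in the 3 comparisons, both directions together. Of 14 measured kinases, retinoblastoma family proteins and E2F factors, 4 were higher in SZ than in IDZ and none lower, namely Cdk6 (1.07 on the log2 scale), E2f7 (0.47), Cdk4 (0.41) and, beyond the naming rule, Rbl2 (0.36). Between IDZ and RZ, 4 were lower in IDZ, the kinase Cdk4 (IDZ minus RZ -0.63), the repressors E2f7 (-0.55) and, beyond the rule, E2f8 (-0.51), and the activator E2f1 (-0.54). Cdk6, a partner of the D-type cyclins, was also 1.14 higher in SZ than in RZ, as was Rbl2 by 0.50, and the other 12 genes did not pass there. The median difference of the list was 0.16, -0.19 and -0.05 in the 3 comparisons, against -0.08, 0.03 and -0.03 over all clusters. The 28.6% of this list that passed between SZ and IDZ lay below the 34.8% of clusters at or above the median level. Without SZ replicate 4, 7 of the 14 were higher in SZ than in IDZ, where 41.6% of all clusters passed.

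The other kinase inhibitors and Cdc25a, 4 of them measured, held 1 gene that passed in each comparison. This was Cdkn3, a phosphatase of cell cycle kinases, at 0.46 for SZ minus IDZ, -0.86 for IDZ minus RZ and -0.40 for SZ minus RZ, the last lost without RZ replicate 2 or 4. Without SZ replicate 4, 1 gene was higher and 1 lower in SZ than in IDZ and 2 were lower in SZ than in RZ. Of 8 measured genes for the breakdown of G1 cyclins and inhibitors, 3 were higher in SZ than in IDZ, namely Skp1 (0.48), Cul1 (0.37) and Gsk3b (0.37), a count of 1 without SZ replicate 2 or 3 and 5 without SZ replicate 4. In this list 0 of 8 passed between IDZ and RZ in limma (3 at an unadjusted p under 0.05, 0 in unmoderated contrasts, 1 without SZ replicate 2 and 3 without SZ replicate 4), whereas 3 were lower in IDZ with the shared animals as a block in IDZ and RZ alone and also 3 in these zones alone. Between SZ and RZ, Skp2, the ubiquitin ligase subunit that marks p27 for breakdown, was higher in RZ (SZ minus RZ -0.71), and Gsk3b, the kinase that marks cyclin D1, was higher in SZ (0.49), a count of 2 higher without SZ replicate 4 and of 2 lower without SZ replicate 2.

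Of the S phase genes that E2F controls, 26 were measured, and those that passed were lower in IDZ than in SZ or RZ. Against IDZ, 12 were higher in SZ, 0 lower and 14 did not pass, with a median of 0.35 and the largest differences at Pcna (1.17), Rrm2 (1.02) and Tyms (1.01). Between IDZ and RZ, 16 were lower in IDZ, 0 higher and 10 did not pass (median -0.53), with Rrm2 at -1.25, Pcna at -1.06 and Mcm6 at -0.86. Between SZ and RZ only Tyms passed (0.40), with a median of -0.14. Without SZ replicate 4 the counts were 20, 21 and 2. Other settings gave fewer. The 12 between SZ and IDZ fell to 8 without SZ replicate 1, 2 or 3 and in unmoderated contrasts. The 16 between IDZ and RZ fell to 11 without RZ replicate 2 and to 13 in unmoderated contrasts. Of SZ and RZ differences, 0 passed without SZ replicate 1, and without SZ replicate 2, 1 was higher and 2 were lower in SZ.

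The list of later cyclins and mitosis genes ran the same way. Of 21 measured, 11 were higher in SZ than in IDZ (median 0.50), led by Bub1 (0.98), Ccna2 (0.94) and Kif11 (0.86), and 19 were lower in IDZ than in RZ (median -0.74), led by Cdc20 (-1.12), Ccnb1 (-1.04) and Plk1 (-1.0036). Between SZ and RZ 0 of 21 passed in limma or in unmoderated contrasts, 6 had an unadjusted p under 0.05, all lower in SZ, and the median was -0.26. Without SZ replicate 4 the counts were 19, 21 and 2, the last higher in SZ, whereas without SZ replicate 2 there were 8 lower in SZ than in RZ. The 11 between SZ and IDZ fell to 9 without SZ replicate 2 or 3 and to 8 in unmoderated contrasts. The 19 between IDZ and RZ fell to 13 without RZ replicate 2 and to 12 in unmoderated contrasts.

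**Figure D3:**
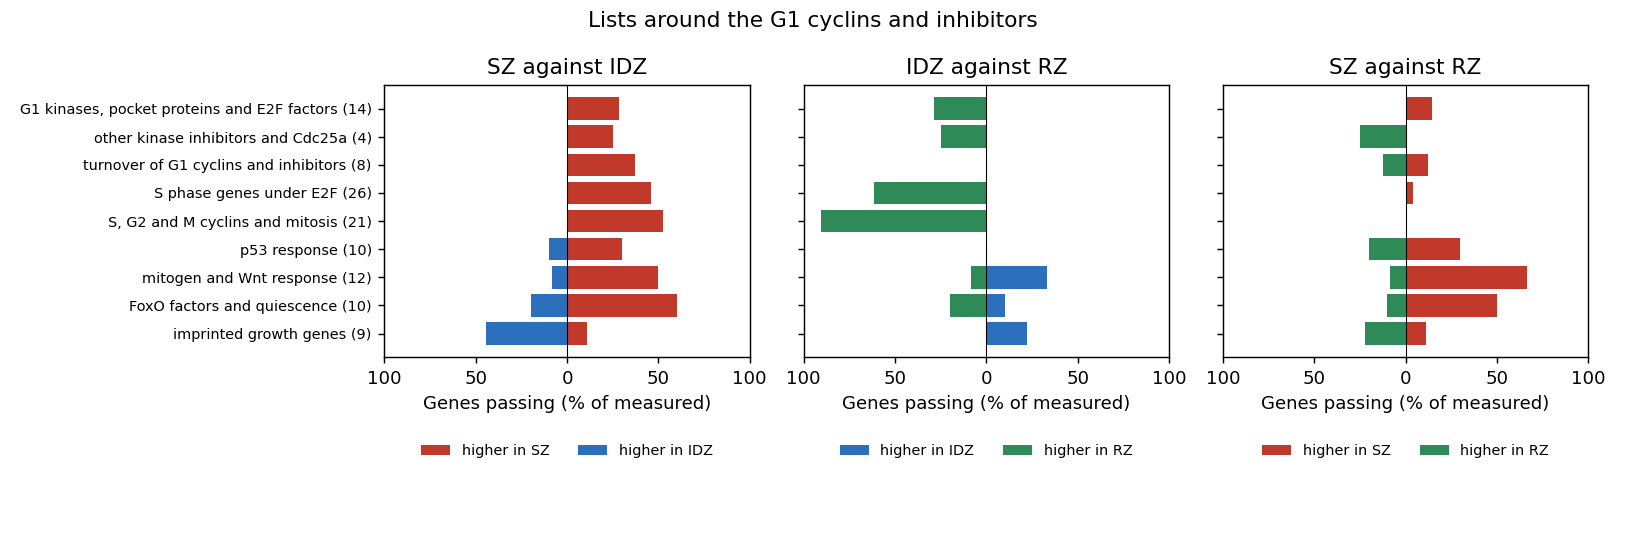
Genes of 9 pathway lists (rows, with the number measured) that passed an adjusted p of 0.05 in each of the 3 comparisons. Bars give the percent of the measured genes, to the right for higher and to the left for lower in the first zone. Among all clusters, which are not drawn, 11.8% were higher in SZ than in IDZ and 3.95% lower in IDZ than in RZ. The S phase list reaches 46.2% higher in SZ than in IDZ and 61.5% lower in IDZ than in RZ.

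Set beside the S phase list, Ccnd1 and Ccne1 differed. The mean log2 signal of the 26 S phase genes was 7.66, 7.77, 7.64 and 7.27 in SZ replicates 1 to 4, 7.15 to 7.20 in the IDZ arrays and 7.65 to 7.78 in the RZ arrays. SZ replicates 1 to 3 thus lay at or near the RZ range, and SZ replicate 4 lay between IDZ and RZ. At those like S phase means Ccnd1 overlapped between SZ and RZ, whereas Ccne1 was 7.13 to 7.54 in SZ replicates 1 to 3 and 8.50 to 8.53 in RZ. Cdkn1c was lower in SZ than in RZ in every array, and Ccnd2 was higher. Over the 12 arrays, r with the S phase mean was 0.891 for Ccnd1 and 0.767 for Ccne1. As deviations from the zone means, r was 0.671 for Ccnd1 and 0.95 for Ccne1, with SZ replicate 4 low in all of them. These r values are a description with no test. The S phase genes and the members were read from the same arrays and share their scaling.

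**Figure D4:**
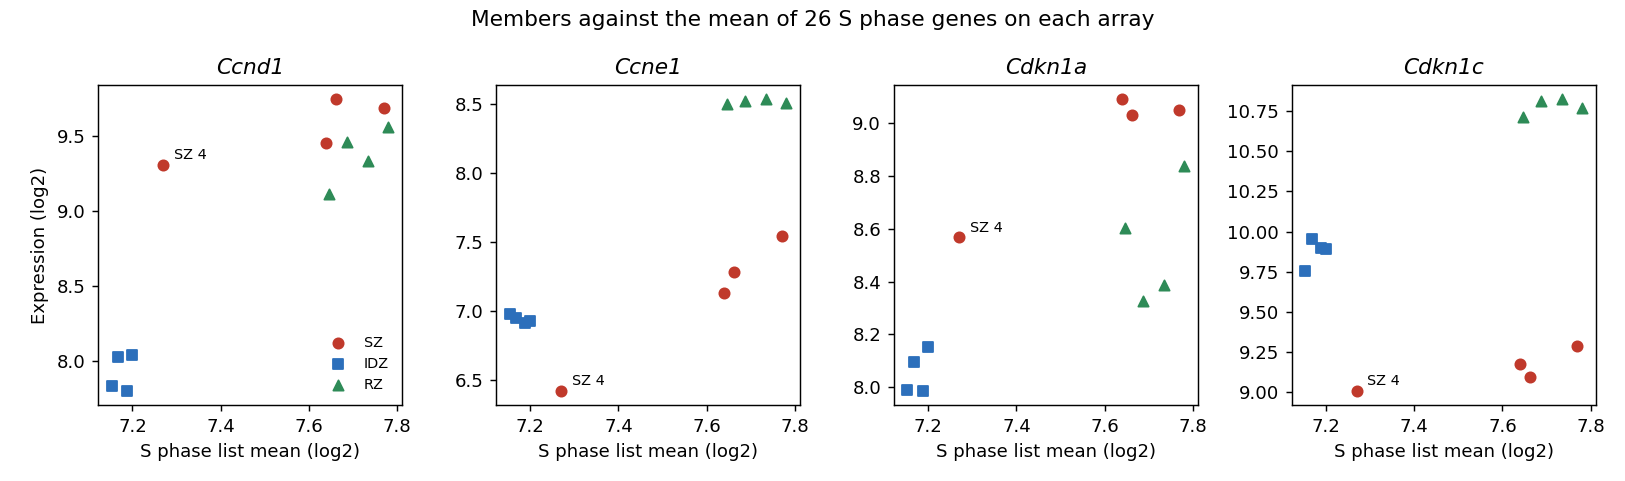
Log2 signal of members (vertical axis) against the mean log2 signal of the 26 measured S phase genes (horizontal axis), 1 point per array, coloured by zone, with SZ replicate 4 marked. The IDZ arrays sit at S phase means of 7.15 to 7.20 and the RZ arrays at 7.65 to 7.78, and Ccne1 separates RZ from SZ arrays of like S phase mean.

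Genes that respond to p53 and to growth signals, known inputs to Cdkn1a and Ccnd1, were mixed. Of 10 measured p53 response genes, 3 had a higher signal in SZ than in IDZ, Plk2 (1.51), Phlda3 (1.16) and Tp53inp1 (0.91), and Mdm2 was lower (-0.47), with 5 higher without SZ replicate 4. In the same list 0 of 10 passed between IDZ and RZ in limma or in unmoderated contrasts, and 1 had an unadjusted p under 0.05. The count was 1 without SZ replicate 4, 1 with the block in IDZ and RZ alone and 2 in those zones alone. Cdkn1a was 0.48 higher in RZ than in IDZ, a difference close to the threshold. In SZ against RZ, 3 were higher and 2 lower in SZ, with Plk2 at 1.36, Phlda3 at 1.09 and Sesn1 at -0.68. Of 12 mitogen and Wnt response genes, 6 were higher and 1 lower in SZ than in IDZ, with Jun at 2.08, Dusp6 at 1.61 and Spry4 at 0.78. Between IDZ and RZ, 4 (2 without IDZ replicate 2) were higher in IDZ, among them Spry2 (1.05) and Dusp6 (0.81), and Lef1, a Wnt transcription factor, was lower (-1.22), while Ccnd1 was lower in IDZ as well. Between SZ and RZ, where Ccnd1 did not pass, 8 were higher in SZ, among them Dusp6 (2.41) and Jun (2.09), and Lef1 was again lower (-1.71). Whether p53 or growth signals have a part in the zone differences of Cdkn1a and Ccnd1 was not tested.

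The genes most like each member were found by Pearson's r over the 12 arrays among 8295 genes at or above the median level. The arrays share zones and scaling, and r is given as a description with no p. Nearest to Ccnd1 were Socs2 (r = 0.983), Tnfrsf21 (0.980) and Spsb1 (0.980), and nearest to Ccnd2 were Cdon (0.985), Tgfbr3 (0.983) and Adcy3 (0.983). Tanc1 (0.989), Usp2 (0.986) and Emc8 (0.980) came nearest to Ccne1. Ppif (0.989), Prtg (0.988) and Bhlhe41 (0.987) came nearest to Cdkn1c. The nearest to Cdkn1a were Sox4 (0.967), Wdr45 (0.966) and Ube2v1 (0.962), and to Cdkn2c Cdo1 (0.960), Ercc3 (0.959) and Heatr1 (0.954).

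Markers of other cells also differed between SZ and the deeper zones, beside the SZ values of the members. The endothelial list averaged 8.24 to 8.67 in the SZ arrays, 6.35 to 6.65 in IDZ and 6.16 to 6.33 in RZ, with 6 of the 7 measured genes in it higher in SZ than in either zone below. For pericytes and smooth muscle these means were 9.06 to 9.41, 7.23 to 7.67 and 7.13 to 7.37 (6 of 7 higher in SZ and 1 lower). For macrophages they were 8.16 to 8.90, 6.52 to 6.77 and 6.27 to 6.85 (10 of 10), and for tendon and fibroblasts 10.67 to 11.14, 8.00 to 8.60 and 6.89 to 7.26 (8 of 8). In IDZ and RZ the tendon marker Tnmd (5.28 and 4.94) and the myeloid markers Itgam (5.08 and 4.93) and Aif1 (5.32 and 5.37) lay under 5.57. That is the level below which 25% of clusters fall. In RZ the fibroblast marker Fap (4.59) and the endothelial marker Tek (5.47) did so too, and array values have no true 0. The part of these other cells in the SZ values of Ccnd1, Ccnd2, Cdkn1a, Cdkn1c and Cdkn2c was not tested. Between IDZ and RZ, 0 of the endothelial, pericyte and macrophage genes passed in limma, and 4, 2 and 0 of them had an unadjusted p under 0.05. Other markers did differ there: 3 of the 8 tendon and fibroblast genes were higher in IDZ, Fap (3.83), Col3a1 (1.97) and Dpt (1.78). So were 2 of the 3 joint surface genes, Prg4 (4.62) and Creb5 (0.91), and 1 of 6 skeletal muscle genes, Tnnt3 (0.55). Lower in IDZ were 1 of 6 osteoblast genes, Runx2 (-1.24), and 1 of 4 hypertrophic chondrocyte genes, Ibsp (-1.55). Their part in the differences of the members between IDZ and RZ was not tested. The erythroid list ranged from 7.29 to 9.27 in SZ, 7.49 to 8.77 in IDZ and 7.56 to 9.56 in RZ.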

How the data were processed

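The values are the deposited log2 signals, which the authors summarised with Partek Genomics Suite 6.6 by RMA (per the labels and the submitters' processing notes). RMA adjusts the probes for background, quantile normalizes the arrays and reduces each cluster's probes to 1 value by median polish. They were not scaled further and probe intensities were not processed again. Normalization of the arrays to each other could hide a shift of all genes. The deposited values still differed between arrays, with medians of 6.76 (RZ replicate 1) to 6.90 (SZ replicate 4). Interquartile ranges ran from 2.24 (SZ replicate 4) to 2.91 (SZ replicate 2). Of 27342 clusters, 15068 had 1 gene symbol, 323 several and 11951 none. The 8 measured members had 1 cluster each, and other genes were read from the brightest.

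A model with a mean for each zone was fitted to all 12 arrays in limma 3.58.1, run in R 4.3.3, with moderated variances. Benjamini-Hochberg adjustment of p ran across every cluster of a comparison, with 0.05 as the threshold, and standard errors and 95% confidence intervals come from the same fit. P-values measure the spread between these samples, and with 4 arrays per zone the precision is limited. In simulated data, 50 of 27342 clusters were shifted by each of 1.5-, 2-, 3- and 4-fold. Of those shifted 2-fold, 48, 47 and 46 passed for SZ and IDZ, IDZ and RZ, and SZ and RZ. Of those shifted 1.5-fold, 26, 25 and 31 of 50 passed, and 6, 12 and 12 unshifted clusters passed. The simulated arrays were independent, with no shared animals and no array like SZ replicate 4. Fewer clusters were shifted than passed in these data, so these counts do not give the power here. The labels give IDZ and RZ replicates with one number the same animals, and place SZ replicates 1 and 2 in animal pair 3 and SZ replicates 3 and 4 in pair 4. For IDZ replicates 1 to 4, deviations from the zone mean correlated at 0.018, 0.022, 0.027 and 0.205 with the RZ array of the same number. The highest correlations with an RZ array of another number were 0.237, 0.209, 0.129 and 0.071. The consensus correlation within animal pairs was -0.141. Fits with the animal pair as a block (random over all zones, fixed in IDZ and RZ alone) were alternatives.

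The members, the 9 pathway lists and the 12 marker lists were chosen with earlier results of these data known. The text names every member, up to 3 genes per pathway list and comparison with the largest difference among those that passed, and the 3 genes with the highest r for each member that passed in any comparison. Alternatives were a trended or robust prior, unmoderated contrasts, 2 zones alone, 3 other scalings, dim clusters left out, a 2-fold minimum, blocks and each array left out. Their use on the pathway lists was chosen after seeing the data. Promoter windows came from RefSeq, and Python 3.11.15 with pandas 2.3.3 and matplotlib 3.10.9 served for tables and figures. The real-time PCR and the earlier growth plate dataset of the study were not analysed here.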

Additional observations from a re-analysis of the deposited data

Results flagged for a closer look

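One array stood far from the others of its zone for a member. Cdkn1a in SZ replicate 4 had a log2 signal of 8.57, against 9.03, 9.05 and 9.09 in the other SZ arrays, a gap of 0.885 of the range of the 4 arrays, above the 95% limit of Dixon's test. It was the only such array among 24 groups of 4 arrays (8 members in 3 zones), and chance gives about 1 in 20.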

How the results depend on the processing

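Over 24 differences of single members, 536 alternative values gave the same call in 486, lost it in 35, gained it in 11 and changed sign in 4, and 9 differences never changed. The sign changes all concerned Ccne2 between SZ and IDZ, 0.04 as reported, which was -0.013 when arrays were centred on the 75th percentile, -0.064 when quantile normalized again and between -0.10 (without SZ replicate 3) and 0.27 (without SZ replicate 4) with 1 array left out.

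With a 2-fold minimum the members called fell to 1 for SZ and IDZ and 2 for IDZ and RZ, all clusters to 1077 (SZ, IDZ), 251 (IDZ, RZ) and 1241 (SZ, RZ), and pathway genes to 9, 8 and 12 of 114. Clusters called between IDZ and RZ, 1840 as reported, were 4146 in a fit of those zones alone, which leaves out the SZ arrays. With 1 array left out, members called ranged from 5 to 6, from 3 to 6 and from 3 to 5 in the 3 comparisons, all clusters from 4929 to 11367, from 1097 to 3925 and from 4732 to 7876, and pathway genes from 45 to 82, from 36 to 65 and from 27 to 40. Each highest value but the last came without SZ replicate 4. Leaving out an SZ array changed no difference between IDZ and RZ, only the spread, which is estimated from all arrays. What set SZ replicate 4 apart was not tested, nor was the cause of the other shifts.

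With the animal pair, shared by samples of all 3 zones, as a random replicate block, 5, 4 and 3 members were called in the 3 comparisons, and with the animals as a fixed block in IDZ and RZ alone 6 members and 3986 clusters were called between these zones. Calls of members changed in these fits only for Cdkn1a and Ccne2, as given with their values. Ccne2 also passed in a fit of IDZ and RZ alone with no block. Reading other clusters of a member could give no value, since each has 1. Dim signal was no limit for the members, all at or above the median level.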

Other observations

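Further lists bear on growth and quiescence, and the shares of all clusters given with the other lists apply here too. Between SZ and IDZ these were 11.8% higher and 11.2% lower in SZ. Of 10 measured FoxO factors and quiescence genes, 6 were higher and 2 lower in SZ than in IDZ (median 0.59; 8 and 2 without SZ replicate 4), with Txnip at 1.12, Tob1 at 0.85 and Hes1 at 0.76. Between IDZ and RZ, 1 was higher and 2 lower in IDZ, Btg1 at 0.53, Foxo1, a known activator of Cdkn1b, at -0.70 and Foxo4 at -0.34, but the count lower was 1 without IDZ replicate 2, 3 or 4, without any RZ replicate and with the random block. There were 3 higher and 3 lower without SZ replicate 4, and 2 higher and 4 lower with the animals as a block in IDZ and RZ alone. Between SZ and RZ, 5 were higher in SZ, among them Hes1 (1.10) and Txnip (1.08), and Foxo4 was lower (-0.80). Cdkn1b itself did not pass in any of the 3 comparisons.

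Of 9 measured imprinted growth genes, a class to which Cdkn1c belongs, 1 was higher and 4 lower in SZ than in IDZ, Mest at 0.73, Meg3 at -0.60, Dlk1 at -0.40 and, beyond the naming rule, Igf2 at -0.31 and Grb10 at -0.31. The count lower in SZ was 2 without SZ replicate 1 or IDZ replicate 3 and 1 without IDZ replicate 1 or 2. Mest ran opposite to Cdkn1c, at 1.39 between IDZ and RZ and 2.13 between SZ and RZ. Dlk1 was 0.72 higher in IDZ than in RZ, and Grb10 (-0.36) and Igf2 (-0.30) were lower in SZ than in RZ.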
